A study of Rattus norvegicus with 6 samples.

Results

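The insulin-like growth factor (IGF) system was examined as 10 genes: the ligand genes Igf1 and Igf2, the receptor genes Igf1r and Igf2r, and the binding protein genes Igfbp2, Igfbp3, Igfbp4, Igfbp5, Igfbp6 and Igfbp7. They were chosen by name, as every probe set that the platform annotation pairs with one of these symbols and no other gene, which gave 23 of the 20826 probe sets that name a single gene, and 10 of 14217 genes. IGF1 and IGF2 are secreted peptides that drive growth and survival through the tyrosine kinase receptor encoded by Igf1r, while the receptor encoded by Igf2r carries IGF2 to the lysosome for breakdown. The binding proteins hold the ligands outside the cell and can both prolong their life and keep them from the receptor. Embryonic fibroblasts are known as a cell type in which IGF1 receptor signalling supports growth and transformation.

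The RNA was that of 3Y1, a rat cell line of embryonic fibroblasts, and was measured on 6 Affymetrix rat expression arrays in 3 groups of 2. The Vector in vitro group held cells stably transfected with an empty vector and grown in culture medium with fetal bovine serum. The MUC1-CD in vitro group held cells stably transfected with the cytoplasmic domain of the mucin MUC1 and grown the same way. The MUC1-CD in vivo group held MUC1-CD cells grown as subcutaneous tumors in female athymic mice. The sources used here do not give the age of the mice or say whether a line was 1 clone or a pool. The titles call the 2 arrays of a group biological replicates without saying what was replicated, so p-values measure the spread between these arrays. The study asked which genes go with transformation by MUC1-CD and with growth of the cells as tumors. Values are array signals in arbitrary units, and levels of different probe sets are not comparable. A change is a difference between group means of log2(signal + 16), given with limma's standard error (SE); adding 16 makes changes of dim probe sets look smaller. A gene was called where the limma adjusted p (Benjamini-Hochberg over 18625 tested probe sets) was under 0.05.

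The arrays carried the markers of their labelled cell type: all 13 fibroblast markers listed, Vim and Col3a1 among them, were above a signal of 61.6 on at least 1 array of each group. The Vector arrays had a Gapdh 3' to 5' signal ratio of 11.5 and 17.8, against 1.11 to 1.18 on the other 4 arrays, so the effect of this sign of RNA quality and that of the Vector label cannot be told apart. The beta-actin 3' to 5' ratio was 4.15 and 41.8 for Vector replicates 1 and 2, against 2.97 to 3.37 for the MUC1-CD arrays, so by this control replicate 1 lay near them and replicate 2 far from them. Replicates also differed more in the Vector group, with an SD of the difference of 0.616 log2 units, than in MUC1-CD culture (0.257) or tumors (0.284), while limma used 1 shared spread. The summed signal of 17 macrophage markers was 1263 to 1382 in Vector culture, 3503 to 3747 in MUC1-CD culture and 7988 to 8047 in tumors. For 14 pericyte and stromal markers these sums were 39260 to 41510, 23120 to 23980 and 52440 to 55120 in the same order. For 12 endothelial markers they were 593 to 656, 607 to 613 and 3032 to 3069, and for 15 skeletal muscle markers 10400 to 10940, 3294 to 3405 and 12950 to 13810. Single genes weigh heavily in these sums: Cd14 was 2828 and 3052 of the macrophage sums in MUC1-CD culture, and Myh1 was 9779 and 10297 of the muscle sums in Vector culture. By gene, the median change of 12 tested macrophage markers was -0.01 from Vector to MUC1-CD culture and 2.78 from there to tumors. That of 11 tested muscle markers was -0.54 and 2.32, with 2.38 from Vector to tumors. Over all tested genes the medians were -0.04, 0.03 and -0.02 in the 3 comparisons. Markers such as Coro1a and Acta1 passed the signal filter of 61.6 only through the tumor arrays, so for these a rise in tumors was built into the selection. Of the macrophage markers, 12 of 17 lay under the signal filter on both arrays of MUC1-CD culture and 2 of 17 in tumors, and Adgre1, the gene of the macrophage antigen F4/80, was under 20 on both arrays of every group. Of the endothelial markers, 10 of 12 and 3 of 12 lay under it, with Kdr, the VEGF receptor gene, under 20 on both arrays of every group. Tumors were frozen and homogenized before extraction, so tissue handling and growth as a tumor cannot be told apart. Tumor RNA can hold mouse host RNA as well as rat RNA, and a change in the number of cells of a type cannot be told apart from a change in RNA per cell in bulk samples.

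The signal filter kept a probe set if its mean signal reached 61.6, which is the 40th percentile, and it passed 11 of the 23 probe sets, from 7 of the 10 genes. The genes with no probe set above it were Igf1, Igf2 and Igfbp2. Igfbp3 passed only through its tumor signal, so a change of Igfbp3 among tested genes was built into the filter. MUC1-CD culture differed from Vector culture in both receptor genes, which rose (Igf2r on 1 of its 2 probe sets, and Igf1r not under every scaling), and in Igfbp4, Igfbp5, Igfbp6 and Igfbp7, which fell. Tumors differed from MUC1-CD culture in Igfbp3, Igfbp4 and Igfbp7, which rose (Igfbp7 not under every scaling), and in Igf1r, which fell. The fall and the rise of Igfbp7 were small, and each missed the threshold under some other settings.

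Counted by gene, with the probe set of highest mean signal standing for a gene, 6 of the 7 tested IGF genes were called in MUC1-CD culture against Vector, where 46.1% of 10037 tested genes were called. Of the 6, 2 were higher (21.2% of all genes) and 4 lower (24.9% of all genes), and the median change of the 7 was -0.36, against -0.04 over all genes. In tumors against MUC1-CD culture, where 18.8% of all genes were called, 4 of the 7 were called. Of these, 3 were higher (9.82% of all genes) and 1 lower (8.97% of all genes), and leaving out Igfbp3 3 of 6 were called. The median was 0.43, or 0.37 without Igfbp3, against 0.03 over all genes. In tumors against Vector, where 51.4% of all genes were called, 5 of the 7 were called (4 of 6 without Igfbp3), 2 higher (24.8% of all genes) and 3 lower (26.6% of all genes), with a median of -0.32 against -0.02. The members are few and were chosen by name, so these counts describe them and do not set them apart from other genes. In tumors against MUC1-CD culture fewer genes were called without either tumor replicate and more without either Vector replicate. Tumors against Vector had 3 called with the filter at the 60th percentile of signal. That filter left Igfbp3 and Igfbp5, both otherwise called there, out of the test. With each array divided by its median, higher genes were 1 of 5 called, 2 of 3 called and 2 of 7 called in the 3 comparisons. Each pair of comparisons shares a group of arrays, so they are not independent.

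**Figure D1:**
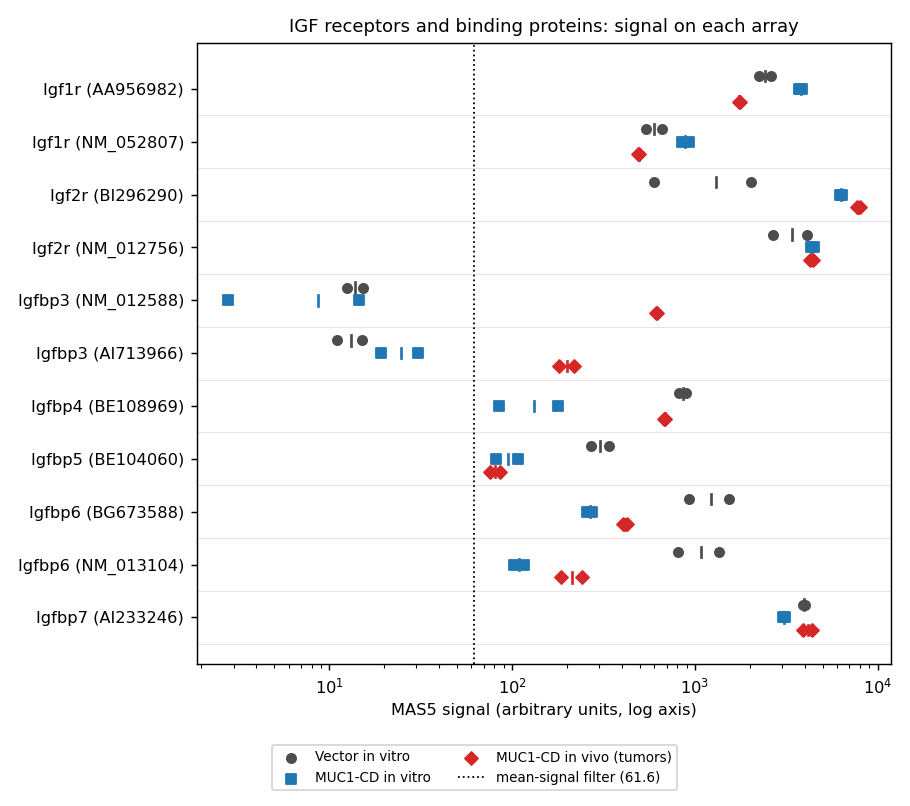
MAS5 signal (log axis) on each of the 6 arrays for the 11 probe sets above the signal filter. Points are single arrays, short bars are group means, and the dotted line is the filter of 61.6, which the Igfbp3 probe sets exceed on the tumor arrays and on no culture array.

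The ligand genes gave low signals in all 3 groups. The 3 probe sets of Igf1 lay between 2.60 and 18.9 in Vector culture, between 1.00 and 16.4 in MUC1-CD culture and between 8.0 and 34.0 in tumors. The 4 probe sets of Igf2 lay between 1.60 and 22.6, between 1.40 and 23.3, and between 4.8 and 36.8 in the same groups. None of the 7 was tested. The detection calls of the arrays were not used here, so a low signal is given as a level near the bottom of the scale, not as absence of the transcript. The Igf1 probe set designed on M15481 read 5.90 and 2.60 in Vector culture, 5.30 and 1.00 in MUC1-CD culture, and 21.3 and 11.8 in tumors. Both tumor arrays were above all 4 culture arrays for this probe set, at signals that stay below the filter. The Igf2 probe set designed on NM_031511 read 7.5 and 8.0, then 5.10 and 6.30, then 14.2 and 10.6, again with tumors the highest and below the filter. The groups did not separate this way on every probe set: tumors overlapped Vector culture on the Igf1 probe set designed on BE103520 (14.8 and 8.0 against 5.0 and 15.8) and on 2 of the 3 Igf2 probe sets designed on M17960, so no order is read from these signals. The part of host cells in these tumor signals was not tested.

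**Figure D2:**
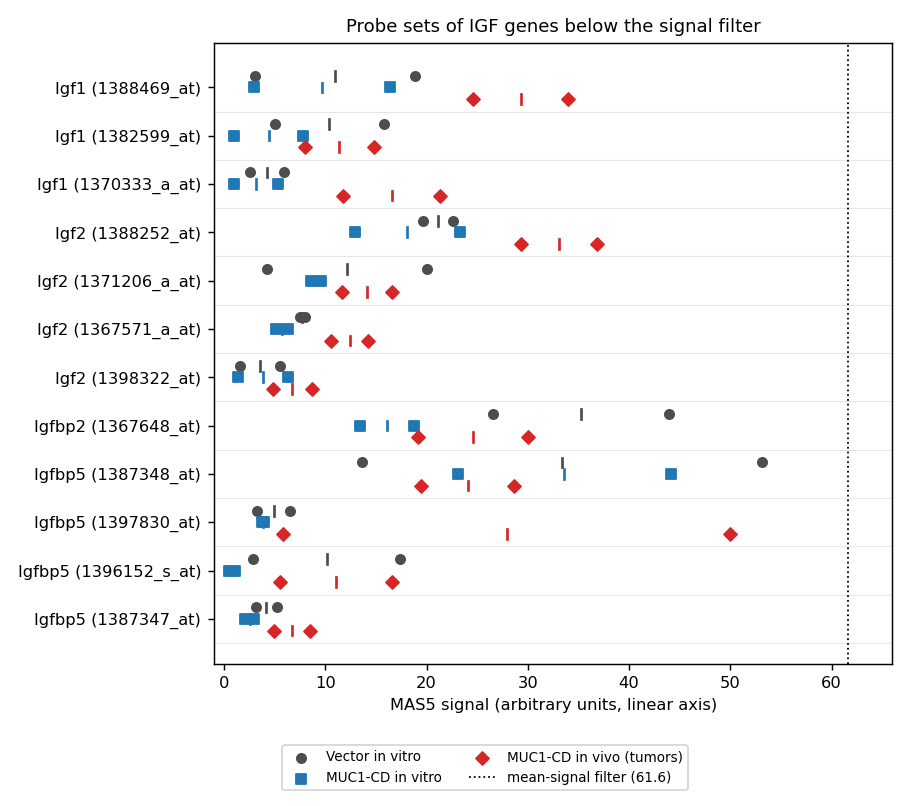
MAS5 signal (linear axis) on each array for the 12 probe sets below the filter: all of Igf1, Igf2 and Igfbp2, and 4 of Igfbp5. Points are single arrays, short bars are group means, the dotted line is the filter of 61.6, and the highest single value is 53.1.

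Igf1r, the receptor through which both ligands signal growth, was highest in MUC1-CD culture and lowest in tumors. Its brighter probe set, named here as the others are by the GenBank entry it was designed on (AA956982), read 2255 and 2604 in Vector culture, 3852 and 3726 in MUC1-CD culture, and 1759 and 1748 in tumors. The 3 groups did not overlap. From Vector to MUC1-CD culture it rose by 0.64 ± 0.11 (log2 change ± SE, limma adjusted p = 0.00425), a ratio of means of 1.56. From MUC1-CD culture to tumors it fell by 1.10 (SE 0.11, adjusted p = 0.00162), and tumors lay below Vector by a change of -0.46 ± 0.11 (adjusted p = 0.0137). The other probe set (NM_052807) had the same order, with 661 and 541, 924 and 845, and 495 and 490 on the arrays. Its changes were 0.55 ± 0.15 (adjusted p = 0.0256), -0.82 ± 0.15 (adjusted p = 0.0159) and -0.27 ± 0.15 (adjusted p = 0.181), so the last, tumors against Vector, was not called. The rise in MUC1-CD culture was no longer called when each array was divided by its median, where the changes of the brighter and the dimmer probe set were 0.32 (adjusted p = 0.0714) and 0.23 (adjusted p = 0.268), or without MUC1-CD culture replicate 1 (0.62, adjusted p = 0.0508, and 0.49, adjusted p = 0.168). The dimmer probe set lost both steps without MUC1-CD culture replicate 1 (changes of 0.49 and -0.76) or 2 (0.61 and -0.89). It also lost both without tumor replicate 1 (0.55 and -0.83) or 2 (0.55 and -0.81). Its rise missed the threshold with array weights (adjusted p = 0.0537) and with only the 2 compared groups in the fit (adjusted p = 0.0615). The brighter one lost its difference between tumors and Vector without tumor replicate 1 (adjusted p = 0.0828) or 2 (adjusted p = 0.0847). The dimmer one had a called difference there without Vector replicate 2 (-0.41, adjusted p = 0.0134) and with division by the median (-0.85, adjusted p = 0.00344).

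Igf2r, the receptor that clears IGF2 and also sorts lysosomal enzymes, had probe sets that disagreed. The probe set designed on BI296290 read 2020 and 599 in Vector culture, 6247 and 6397 in MUC1-CD culture, and 7957 and 7733 in tumors. It was higher on all 4 MUC1-CD arrays than on either Vector array, and the Vector replicates stood far apart. Its change from Vector to MUC1-CD culture was 2.50 ± 0.48 (adjusted p = 0.00610), or 3.37 without Vector replicate 1 and 1.64 without Vector replicate 2. Tumors differed from Vector by 2.81 ± 0.48 (adjusted p = 0.00319) and from MUC1-CD culture by 0.31 ± 0.48 (adjusted p = 0.711; 95% interval -0.84 to 1.46). This last step, of the same size, was called without Vector replicate 1 (adjusted p = 0.00228) or 2 (adjusted p = 0.00177), whose spread enters the fit. The probe set designed on NM_012756 read 4126 and 2673, then 4469 and 4303, then 4268 and 4438. Its changes were 0.40 ± 0.19 (adjusted p = 0.135) from Vector to MUC1-CD culture, -0.01 ± 0.19 (adjusted p = 0.979) from there to tumors, and 0.39 ± 0.19 (adjusted p = 0.134) from Vector to tumors, and none was called. Without Vector replicate 1, the Vector array with the smaller Gapdh ratio, its change from Vector to MUC1-CD culture was 0.71 and that to tumors 0.70. Without Vector replicate 2, the array with the larger ratio, these changes were 0.09 and 0.08.

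The ratio of the BI296290 probe set to the NM_012756 probe set was 0.489 and 0.224 on Vector replicates 1 and 2, 1.40 and 1.49 in MUC1-CD culture, and 1.86 and 1.74 in tumors. Only the change of this ratio between arrays can be read, since different probe sets have different scales. It was lowest on Vector replicate 2, the array with the highest Gapdh and beta-actin ratios, and the part of RNA quality in the Igf2r change was not tested.

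**Figure D3:**
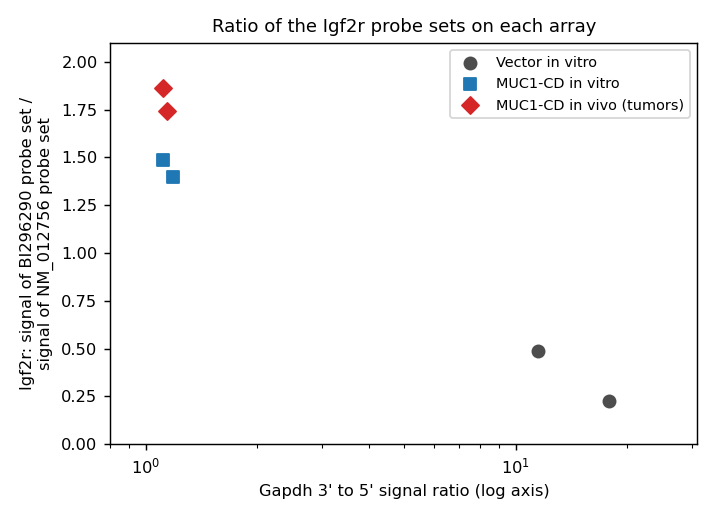
Ratio of the signals of the Igf2r probe sets (linear axis) against the Gapdh 3' to 5' signal ratio (log axis), 1 point per array. The Vector arrays lie at 0.489 and 0.224 with Gapdh ratios of 11.5 and 17.8, and the other 4 arrays lie between 1.40 and 1.86 with Gapdh ratios of 1.11 to 1.18.

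Among the binding protein genes, Igfbp4, Igfbp5 and Igfbp6 fell together in MUC1-CD culture, and Igfbp3 and Igfbp4 had the largest rises in tumors. The 250 bases before the annotated start of these 4 genes, from RefSeq on the GRCr8 assembly, are shown so that the start regions of binding protein genes that fell together can be set beside that of Igfbp3, which did not fall. All 10 genes had at least 1 such window. Capitals mark matches, searched on both strands, to TATAAA (the TATA box), the like sequence TATATA, the C-rich run CCCCTCCCC, GGGCGG (a GC box), CACGTG (an E-box) and TGACTCA (an AP-1 site). The C-rich run and TATATA were added after the sequences were read.
Igfbp3 (chr14:86277945-86278194, - strand): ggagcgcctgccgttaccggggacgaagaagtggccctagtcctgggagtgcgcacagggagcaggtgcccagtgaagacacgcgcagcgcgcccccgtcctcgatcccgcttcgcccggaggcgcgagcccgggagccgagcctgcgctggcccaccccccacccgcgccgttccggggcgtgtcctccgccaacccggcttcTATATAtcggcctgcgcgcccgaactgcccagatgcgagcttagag
Igfbp4 (chr10:84491221-84491470, + strand): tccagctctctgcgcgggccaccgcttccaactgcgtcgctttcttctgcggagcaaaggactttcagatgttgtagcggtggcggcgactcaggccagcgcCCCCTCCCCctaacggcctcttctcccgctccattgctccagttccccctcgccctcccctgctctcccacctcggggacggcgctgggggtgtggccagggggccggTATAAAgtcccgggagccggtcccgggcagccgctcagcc
Igfbp5 (chr9:81914188-81914437, - strand): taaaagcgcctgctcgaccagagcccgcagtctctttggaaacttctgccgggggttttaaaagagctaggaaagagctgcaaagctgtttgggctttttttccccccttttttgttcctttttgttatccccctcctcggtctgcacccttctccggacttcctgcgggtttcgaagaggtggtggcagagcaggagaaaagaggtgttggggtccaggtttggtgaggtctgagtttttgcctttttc
Igfbp6 (chr7:135154669-135154918, + strand): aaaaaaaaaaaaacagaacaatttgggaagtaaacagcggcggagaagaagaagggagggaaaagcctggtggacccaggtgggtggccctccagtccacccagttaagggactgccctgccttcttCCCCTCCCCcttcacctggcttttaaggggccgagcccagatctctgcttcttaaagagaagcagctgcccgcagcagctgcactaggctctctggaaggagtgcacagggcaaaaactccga

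TATAAA was found in the Igfbp4 window, 40 to 35 bases before the start, and is in 12.9% of 33469 windows of that length over all genes. TATATA was found in the Igfbp3 window, 46 to 41 bases before the start (5.45% of all windows). The C-rich run was found in the windows of Igfbp4 and Igfbp6, which both fell in MUC1-CD culture (5.66% of all windows). It was also in the window of Igfbp2, but not in those of Igfbp5 and Igfbp7, which fell there too. Since it was picked from these sequences, no link to the fall is read from it. None of the 4 windows printed above held GGGCGG (30.5% of all windows), CACGTG (5.59%) or the AP-1 sequence (4.05%). The Igf2r window was not printed, although Igf2r had the second largest range of group means of the tested members (2.81, against 4.72 for Igfbp3). It held CACGTG and GGGCGG at 2 places each. The windows of Igf1r and Igfbp2 also held both, at 1 place each. GGGCGG alone was found at 4 places in the Igfbp7 window and at 1 place in an Igf2 window. The share of G and C was 71.6% for Igfbp3, 68.8% for Igfbp4, 51.6% for Igfbp5 and 54.8% for Igfbp6, against a median of 51.2% over all windows. These are matches of letters in a short window and do not show binding.

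Igfbp3 encodes the main carrier of IGFs in the circulation and is made by many stromal cells. Its brighter probe set (NM_012588) read 12.5 and 15.3 in Vector culture, 2.80 and 14.6 in MUC1-CD culture, and 609 and 620 in tumors. Both culture groups were near the bottom of the scale and overlapped, and the tumor arrays were far above them. The change from MUC1-CD culture to tumors was 4.72 ± 0.31 (adjusted p = 0.000325), and from Vector to tumors 4.40 ± 0.31 (adjusted p = 9.78e-05). The other probe set (AI713966) read 15.2 and 11.0, then 30.5 and 19.1, then 218 and 180, with changes of 2.41 ± 0.30 (adjusted p = 0.00374) and 2.88 ± 0.30 (adjusted p = 0.000418). The first of these was not called without tumor replicate 1 (2.28, adjusted p = 0.0601). From Vector to MUC1-CD culture the probe sets changed by -0.32 ± 0.31 (adjusted p = 0.445) and 0.48 ± 0.30 (adjusted p = 0.241).

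Some markers of cell types a mouse host could add were called higher in tumors than in MUC1-CD culture. They were 8 of 12 tested for macrophages, 4 of 5 for endothelium, 9 of 11 for muscle and 7 of 13 for stroma. For adipocytes 1 of 4 was called higher and 1 lower, and for epithelium 1 of 3 higher. Over all genes 9.82% were called higher. Markers such as Coro1a and Aqp1 passed the signal filter only through the tumor arrays, so for these a rise was built into the selection. The macrophage marker Laptm5 and the stromal marker Pdgfra were called lower, and Cd14 read 2828 and 3052, then 3248 and 3289. Postn, a stromal matrix protein, read 215 and 276 in MUC1-CD culture and 18360 and 19565 in tumors. Coro1a, of leukocytes, read 15.0 and 1.60, then 912 and 1105. Aqp1, a water channel of endothelium, read 33.3 and 20.7, then 1763 and 1550. The part of host cells in the tumor signal of Igfbp3 was not tested.

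By the rule fixed for likeness, the 5 genes whose log2 signals followed Igfbp3 most closely over the 6 arrays were Relb, Gng11, Alkbh3, Alox12 and Thbs4, with Pearson r from 0.997 to 1.00. Thbs4, a thrombospondin, read 2.30 and 5.00 in MUC1-CD culture and 363 and 392 in tumors, and Relb, an NF-kB subunit, read 142 and 159, then 372 and 376. Since the 6 arrays form 3 groups and 2 of them lie together for Igfbp3, such an r mainly records the gap between culture and tumors. An r above 0.99 was reached by 48 of 10036 genes. Like Igfbp3, Gng11, Alox12 and Thbs4 passed the signal filter only through the tumor arrays, so this shape was built into their selection. Relb and Alkbh3 lay above the filter on all arrays.

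Igfbp4 encodes a binding protein that mostly restrains IGF action and is cut by the protease PAPP-A. Its probe set (BE108969) read 816 and 900 in Vector culture, 178 and 84.7 in MUC1-CD culture, and 679 and 686 in tumors. MUC1-CD culture was low, and the other groups lay close together. The change from Vector to MUC1-CD culture was -2.64 ± 0.30 (adjusted p = 0.000697), a ratio of means of 0.153. From MUC1-CD culture to tumors it rose by 2.32 ± 0.30 (adjusted p = 0.00396), a ratio of 5.20. Tumors and Vector did not differ past the threshold (-0.32 ± 0.30, adjusted p = 0.394, 95% interval -1.03 to 0.38), although both tumor arrays were below both Vector arrays. With each array divided by its median this last change was -0.91 and was called (adjusted p = 0.0357). The rise in tumors missed the threshold without tumor replicate 1 (adjusted p = 0.0542) or tumor replicate 2 (adjusted p = 0.0528), at changes of 2.33 and 2.31. Of the 13 tested stromal markers, 3 were called higher and 4 lower in MUC1-CD culture than in Vector (median change 0.58). Over all genes 21.2% were called higher and 24.9% lower there. In tumors against MUC1-CD culture 7 were called higher and 1 lower (median change 1.34), against 9.82% and 8.97% of all genes. Lum, Dcn and Cd248 passed the signal filter only through the tumor arrays, so their rise was built into the selection. The part of host stroma in the tumor signal of Igfbp4 was not tested.

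Igfbp5 encodes a binding protein that also attaches to extracellular matrix, and its signal was below Vector in both MUC1-CD culture and tumors. The 1 probe set above the filter (BE104060) read 338 and 271 in Vector culture, 81.4 and 108 in MUC1-CD culture, and 75.6 and 85.4 in tumors. The Vector arrays stood above the others, and the MUC1-CD groups overlapped. The changes against Vector were -1.54 ± 0.23 in culture (adjusted p = 0.00214) and -1.73 ± 0.23 in tumors (adjusted p = 0.00110). Between the MUC1-CD groups the change was -0.19 ± 0.23 (adjusted p = 0.628, 95% interval -0.73 to 0.36). The other 4 probe sets of Igfbp5 lay between 0.50 and 53.1 and give no check of this fall.

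Igfbp6 encodes a binding protein that prefers IGF2, and it fell in MUC1-CD culture on both of its probe sets. The first (BG673588) read 1536 and 927 in Vector culture, 275 and 259 in MUC1-CD culture, and 424 and 405 in tumors. The second (NM_013104) read 1347 and 812, then 117 and 103, then 240 and 185. On both, the Vector arrays were highest, tumors came next and MUC1-CD culture was lowest, with no overlap between groups. The changes from Vector to MUC1-CD culture were -2.10 ± 0.24 (adjusted p = 0.000762) and -3.08 ± 0.27 (adjusted p = 0.000284). Those from Vector to tumors were -1.49 ± 0.24 (adjusted p = 0.00246) and -2.23 ± 0.27 (adjusted p = 0.000751). The probe sets differed in the size of the fall, with a ratio of the first to the second of 1.14 on both Vector arrays and 2.36 and 2.52 in MUC1-CD culture. The step from MUC1-CD culture to tumors was not called, at 0.61 ± 0.24 (adjusted p = 0.139) and 0.85 ± 0.27 (adjusted p = 0.0796). It was called on both probe sets without Vector replicate 1 (adjusted p = 0.00189 and 0.00249) or Vector replicate 2 (adjusted p = 0.00155 and 0.00206), since the spread is shared with the Vector arrays.

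Igfbp7 encodes a more distant relative with low affinity for IGFs that is deposited in matrix and around vessels. Its probe set (AI233246) read 3904 and 3987 in Vector culture, 3100 and 3052 in MUC1-CD culture, and 3927 and 4373 in tumors. MUC1-CD culture was the lowest group, and Vector and tumors overlapped. The fall in MUC1-CD culture was small (-0.36 ± 0.10, adjusted p = 0.0246), as was the rise in tumors (0.43 ± 0.10, adjusted p = 0.0317). The rise was not called with each array divided by its median (0.16, adjusted p = 0.383), a scaling that turned the change from Vector to tumors from 0.07 ± 0.10 (adjusted p = 0.576) to -0.52 (adjusted p = 0.00695). Without MUC1-CD culture replicate 1 or 2, neither step of Igfbp7 was called (adjusted p = 0.126 and 0.149 for the fall, 0.206 and 0.220 for the rise). Without tumor replicate 1 or 2, neither was called either (adjusted p = 0.0530 and 0.0537 for the fall, 0.131 and 0.230 for the rise).

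Igfbp2, a binding protein of fetal tissues, stayed under the filter. It read 43.9 and 26.6 in Vector culture, 13.4 and 18.8 in MUC1-CD culture, and 30.0 and 19.2 in tumors. The Vector arrays were above the MUC1-CD culture arrays, at signals too low to be tested here.

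**Figure D4:**
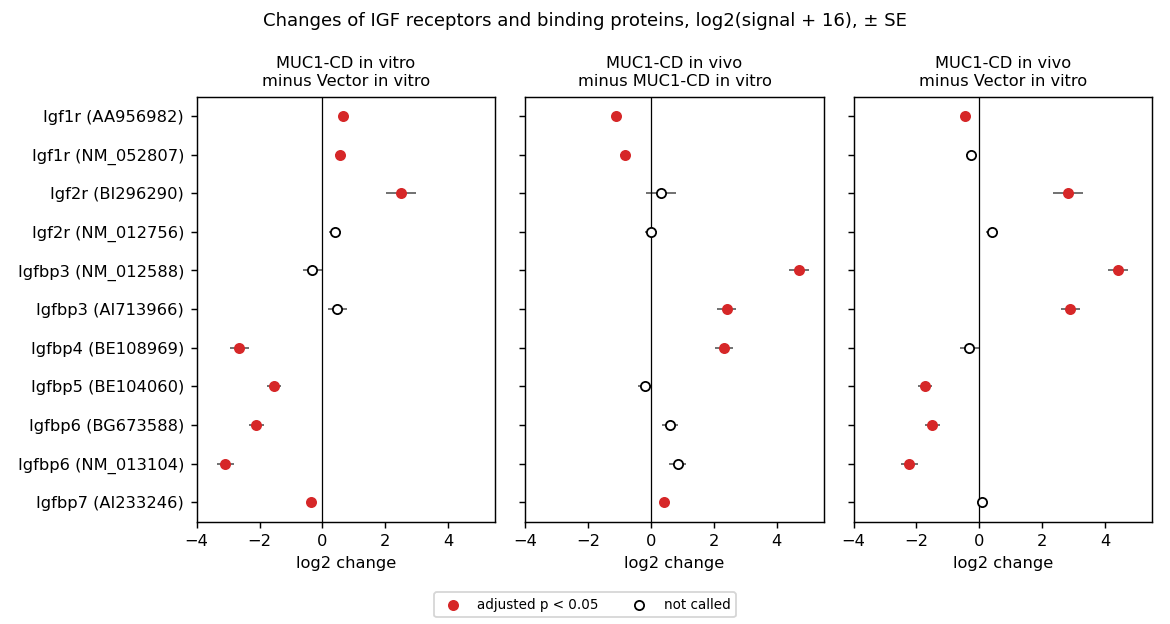
Log2 changes with SE of the 11 probe sets above the filter in the 3 comparisons. Red points passed a limma adjusted p of 0.05 and open points did not. Igf1r rises and then falls, Igfbp4 falls and then rises, and Igfbp3 is called only in the comparisons with tumors.

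The genes lie on chromosomes 1, 7, 9, 10 and 14 of the GRCr8 assembly. Igfbp2 and Igfbp5 are neighbours on chromosome 9 with 0 protein-coding genes between them, as are Igfbp1 and Igfbp3 on chromosome 14. Igfbp6 lies on a chromosome that was low as a whole: the 656 tested genes of chromosome 7 had a median change of -0.65 from Vector to MUC1-CD culture, against -0.21 to 0.08 on the other 4 chromosomes. Its 40 nearest tested genes, from Atf1 to Hnrnpa1, had a median change of -0.81, and 85.0% of them were lower. The own change of Igfbp6 was -2.10. The 40 neighbours of Igfbp7 had a median of -0.31, close to its own -0.36, and those of Igfbp4 and Igfbp5 had medians of -0.26 and 0.11, against own changes of -2.64 and -1.54. Around Igf1r and Igf2r on chromosome 1 the medians were 0.11 and 0.09. In the tumor step the neighbours of Igfbp3 and Igfbp4 had medians of -0.13 and 0.24, against 4.72 and 2.32 for the genes themselves. The part of chromosome-wide or regional shifts in the changes of Igfbp6 and Igfbp7 was not tested.

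Of 50 other genes of the IGF pathway listed (other binding proteins, proteases and their inhibitors, receptor substrates, kinases and mRNA-binding proteins), 43 had a probe set and 33 were tested. In MUC1-CD culture against Vector, 7 rose and 10 fell, or 51.5% called, against 46.1% over all genes, with a median change of 0.0031. Among proteins that act on the binding proteins, Stc1, which encodes an inhibitor of the PAPP-A protease, rose in both steps. It read 143 and 109 in Vector culture, 852 and 897 in MUC1-CD culture, and 3188 and 3506 in tumors, with changes of 2.66 ± 0.16 (adjusted p = 8.03e-05) and 1.92 ± 0.16 (adjusted p = 0.000789). Both dimmer Stc1 probe sets moved the same way, and the dimmest was not called in tumors against MUC1-CD culture (1.55 ± 0.43, adjusted p = 0.0540). The means of the dimmest in Vector culture (17.65) and MUC1-CD culture (57.3) lay under the signal filter, so its rise in tumors was built into its selection. Igfbp1 and Igfals, which encode the remaining classic binding protein and the acid-labile subunit of the circulating complex, lay between 1.40 and 8.70 on all arrays and were not tested. Htra1, a protease that can cut binding proteins, read 7542 to 9168 over the 6 arrays and was called in none of the comparisons.

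Among receptor-proximal genes, the genes of the adaptors Grb10 and Grb14, which bind and restrain insulin and IGF receptors, were examined next. Grb14 fell in both steps and read 982 and 945 in Vector culture, 675 and 655 in MUC1-CD culture, and 64.9 and 76.3 in tumors. Its fall from MUC1-CD culture to tumors was a change of -2.98 ± 0.15 (adjusted p = 0.000178). Grb10, an imprinted gene like Igf2 and Igf2r, read 6454 and 6471, then 4611 and 4242, then 2226 and 2210 on its brightest probe set, with a change of -0.55 ± 0.09 (adjusted p = 0.00377) in MUC1-CD culture and -0.99 ± 0.09 (adjusted p = 0.00114) in tumors. The probe sets of Grb10 disagreed: a dimmer one, at 301 and 235 in Vector culture and 461 and 464 in MUC1-CD culture, rose there (0.76 ± 0.18, adjusted p = 0.0148) and was not called from there to tumors (-0.57 ± 0.18, adjusted p = 0.0824), and the dimmest was called in neither step (0.26 ± 0.30, adjusted p = 0.507, and -0.10 ± 0.30, adjusted p = 0.862). Irs2, a docking protein of both receptors, read 950 and 951 in Vector culture and 368 and 394 in MUC1-CD culture (-1.29 ± 0.14, adjusted p = 0.000565), and 418 and 406 in tumors. Ghr, the growth hormone receptor through which Igf1 is induced in many tissues, read 252 and 360, then 40.8 and 49.2, then 13.0 and 10.1, a change of -2.38 ± 0.28 (adjusted p = 0.000878) in MUC1-CD culture. Ghr passed the signal filter only through the Vector arrays, so a lower value elsewhere was built into its selection.

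Of the other genes named by rule, Gsk3b, a kinase inhibited by AKT, rose by 1.98 ± 0.23 in MUC1-CD culture (adjusted p = 0.000752). The genes of the IGF2 mRNA-binding proteins Igf2bp1 and Igf2bp2 rose by 1.27 ± 0.17 and 1.20 ± 0.16 (adjusted p = 0.00134 and 0.00139), each on its brightest probe set. A dimmer Igf2bp2 probe set was not called, with a change of 0.0065 ± 0.43 (adjusted p = 0.992). Pcsk6, a proprotein convertase, read 168 and 176 in Vector culture, 13.2 and 2.00 in MUC1-CD culture, and 79.2 and 35.9 in tumors, with changes of -3.04 ± 0.40 (adjusted p = 0.00134) and 1.62 ± 0.40 (adjusted p = 0.0399). Its means in MUC1-CD culture (7.60) and tumors (57.6) lay under the signal filter, so the fall was likewise built into its selection, and the second change starts near the bottom of the scale. In the tumor step, 3 listed genes rose and 6 fell, 27.3% called against 18.8% over all genes, with a median of -0.0019. Foxo3, a transcription factor that AKT keeps out of the nucleus, rose by 0.60 ± 0.12 (adjusted p = 0.0181). It was lower in MUC1-CD culture than in Vector (-0.63 ± 0.12, adjusted p = 0.00534). Tumors and Vector did not differ past the threshold for Foxo3 (-0.03 ± 0.12, adjusted p = 0.861). Igf2bp3 and the insulin-degrading enzyme gene Ide fell, by changes of -1.29 ± 0.18 (adjusted p = 0.00577) and -0.69 ± 0.12 (adjusted p = 0.0110), on their brightest probe sets. A dimmer one was not called for Igf2bp3 (-0.62 ± 0.26, adjusted p = 0.163), and of 2 others for Ide 1 was called (-0.71 ± 0.15, adjusted p = 0.0226) and 1 was not (-0.43 ± 0.51, adjusted p = 0.619). In tumors against Vector, 10 rose and 14 fell, 72.7% called against 51.4%, with a median of -0.19. With each array divided by its median, higher genes were 6 of 21 called in the first comparison, 2 of 9 in the tumor step and 5 of 26 in tumors against Vector. The count of the first comparison was 26 without Vector replicate 1 and 9 without MUC1-CD culture replicate 2. That of the tumor step was 3 without any 1 array of MUC1-CD culture or tumors, and 17 and 18 without Vector replicate 1 or 2. Against Vector, tumors had 14 without tumor replicate 1 or 2.

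**Figure D5:**
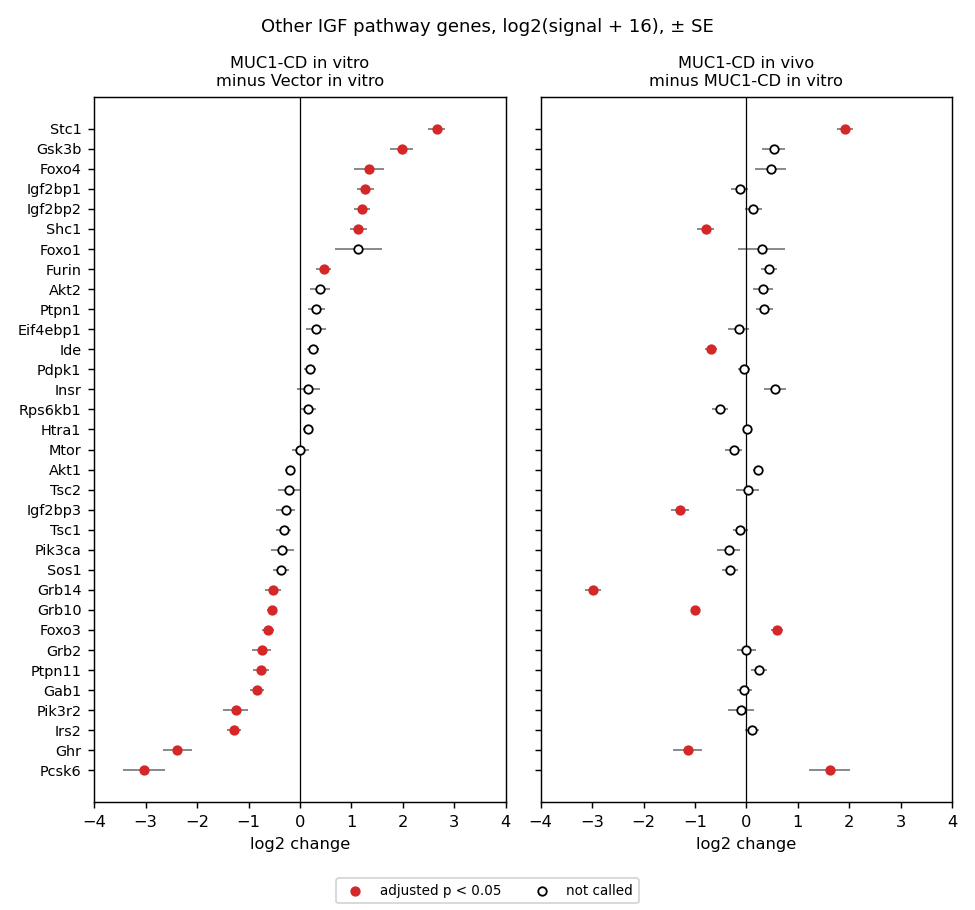
Log2 changes with SE of the 33 tested genes of the IGF pathway list, ordered by the change from Vector to MUC1-CD culture (left), with the change from MUC1-CD culture to tumors in the same order (right). Red points passed a limma adjusted p of 0.05. Stc1 lies to the right of 0 in both panels, and Grb14, Ghr and the brightest Grb10 probe set lie to the left in both.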

How the data were processed

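Total RNA of 6 samples was hybridized to rat expression arrays. The values deposited by the authors are microarray intensities, 1 linear signal per probe set; the submitters' processing notes name MAS5, and the sources used here give no version or filter. The deposited scaling was kept. Of 31042 probe sets other than controls, 20826 named 1 gene, 436 named several and stayed unnamed, and 9780 were unnamed. Symbols were updated through Entrez identifiers to GRCr8 (20764 matched).

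Signals were put on the scale log2(signal + 16), probe sets under the 40th percentile of mean signal (61.6) were left out, and limma 3.58.1 in R 4.3.3 fitted 1 model to all arrays with group as its only term (residual degrees of freedom 3, prior 3.70 at the median; eBayes with a trend). The code was checked on simulated data. Alternatives were other pseudocounts, filters, scalings, array weights, fits of 2 groups, a replicate block and each array left out. The replicate numbers did not pair the arrays. The members, the gene lists and the rule for named genes (all members; up to 4 higher and 4 lower pathway genes per comparison by p; the 3 brightest markers per list) were chosen with earlier results of these data known. The lists of adipocyte and epithelial markers had summed signals of 2992 to 3508 and 796.8 to 912.0 in Vector culture. These were 1831 to 1836 and 200.5 to 273.3 in MUC1-CD culture, and 1723 to 1877 and 866.5 to 943.7 in tumors. Promoter windows came from RefSeq. The number of arrays limits the precision. The platform annotation can be old.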

Additional observations from a re-analysis of the deposited data

How the results depend on the processing

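Alternative settings of called member changes stayed called in the same direction 279 times and missed the threshold 30 times. For changes not called, they stayed so 153 times, became called in the same direction 17 times and changed sign 7 times. The last were Igfbp3 NM_012588 from Vector to MUC1-CD culture (-0.668 to 0.0350 with 1 array left out), Igf2r NM_012756 from MUC1-CD culture to tumors (0.0378 with quantile normalization, -0.0388 to 0.0172 with 1 array left out) and from Vector to tumors (-0.21 with each array divided by its median), and Igfbp7 from Vector to tumors (-0.52 under that scaling, -0.0067 to 0.148 with 1 array left out). Under division by the median, the middle change over tested probe sets went from 0.07 to -0.24, from 0.05 to -0.21 and from 0.12 to -0.45 in the 3 comparisons, and higher calls went from 54.7% to 33.7%, from 53.9% to 22.9% and from 56.5% to 25.7% of calls.

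Leaving out 1 array at a time gave 4 to 6 called member genes in MUC1-CD culture against Vector, 2 to 6 in tumors against MUC1-CD culture and 4 to 5 in tumors against Vector. The last count was 3 with the filter at the 60th percentile, which left Igfbp3 and Igfbp5 untested. For the pathway list these ranges were 9 to 26, 3 to 18 and 14 to 27, and in tumors against MUC1-CD culture the list had 18 calls with only the compared groups in the fit and 16 with array weights, against 9. A lone array was assumed to vary like the other groups. With the replicate block, 6, 3 and 5 member genes were called in the 3 comparisons; Igfbp7 was lost in the tumor step (adjusted p = 0.0546) and Igfbp6 NM_013104 gained there (adjusted p = 0.0478). Same-numbered arrays did not deviate together (correlations of -0.02, -0.03 and -0.04 over probe sets). Signals near the bottom of the scale, as for Igf1, Igf2 and Igfbp2, are too dim for a test here.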
